A study of Mus musculus with 14 samples.

Results

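Transcripts of 8 genes used by mast cells and of the gene for the KIT ligand were followed across bulk RNA-seq libraries from a mouse model of plexiform neurofibroma (PN), a benign tumor of peripheral nerve driven by loss of *Nf1* in Schwann cells (SCs). The genes were *Kit*, *Kitl*, *Cpa3*, *Cma1*, *Mcpt4*, *Tpsb2*, *Hdc*, *Ms4a2* and *Fcer1a*, chosen by symbol. All 9 were among the 24062 genes counted. Libraries came from 3 control samples of dorsal root ganglia (DRG) taken with nerve, from 5 slow-growing PNs and from 6 fast-growing PNs. Control mice were Nf1fl/fl, carrying the floxed allele without Cre, and PN mice were DhhCre;Nf1fl/fl. Every mouse was of mixed C57BL/6, I-129 and FVBN background and received no drug. Growth was scored by volumetric MRI at 7 and 9 months of age, with over 35 mm3 gained in 2 months counted as fast and a change under 5 mm3 as slow. Controls and PNs were both taken at 9 months, and the sources used here give no sex or preparation batch for any library. The series title calls the controls wild type, while their labels give the Nf1fl/fl genotype.

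Mast cells are tissue-resident granulocytes that mature locally under KIT ligand, a growth factor made by stromal cells such as fibroblasts and endothelium and sensed through the receptor tyrosine kinase KIT. Their granules store histamine, made by the enzyme that *Hdc* encodes, together with proteases bound to serglycin, and antigen releases them through the high-affinity IgE receptor. Neurofibromas have long been known to hold mast cells. In this model *Dhh*-driven Cre acts in the SC lineage, so mast cells keep *Nf1*. *Kit* is not particular to mast cells, since some sensory neurons and melanocytes also make it.

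Proximal promoters of 4 granule genes are shown because their transcripts varied together across the PNs. GATA factors are regulators of mast cell genes, so the 250 bases before each start site (RefSeq, GRCm38.p6) were searched on both strands for the letters GATA with A or T before them and A or G after them. Matches are in capitals, with a match on the other strand shown as its reverse complement. The windows are chr3:20242182-20242431 for *Cpa3*, chr14:55944676-55944925 for *Cma1*, chr14:56062311-56062560 for *Mcpt4* and chr2:126618679-126618928 for *Hdc*, all on the minus strand and printed 5′ to 3′ toward the RefSeq start site, which for *Hdc* lies inside the longer gene of the GENCODE annotation.
Cpa3: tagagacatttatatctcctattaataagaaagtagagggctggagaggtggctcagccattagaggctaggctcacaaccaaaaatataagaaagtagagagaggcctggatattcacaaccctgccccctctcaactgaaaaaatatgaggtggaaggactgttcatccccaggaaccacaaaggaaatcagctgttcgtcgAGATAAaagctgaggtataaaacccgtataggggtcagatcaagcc
Cma1: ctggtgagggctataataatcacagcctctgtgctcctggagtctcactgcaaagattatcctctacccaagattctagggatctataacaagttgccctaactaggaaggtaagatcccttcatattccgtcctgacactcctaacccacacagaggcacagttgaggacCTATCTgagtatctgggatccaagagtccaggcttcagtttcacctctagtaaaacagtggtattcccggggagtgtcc
Mcpt4: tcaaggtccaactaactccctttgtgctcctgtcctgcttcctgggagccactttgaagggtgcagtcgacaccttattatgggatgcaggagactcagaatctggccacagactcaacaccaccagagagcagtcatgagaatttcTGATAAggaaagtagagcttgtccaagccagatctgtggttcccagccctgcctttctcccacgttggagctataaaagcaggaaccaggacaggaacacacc
Hdc: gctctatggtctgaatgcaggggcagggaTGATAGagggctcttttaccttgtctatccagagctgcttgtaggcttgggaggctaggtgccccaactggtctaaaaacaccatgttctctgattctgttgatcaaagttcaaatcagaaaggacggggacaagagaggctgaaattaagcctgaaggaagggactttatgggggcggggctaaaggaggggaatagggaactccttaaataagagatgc
The match lay 46 bases before the start in *Cpa3*, 79 in *Cma1*, 103 in *Mcpt4* and 221 in *Hdc*. *Ms4a2* held 3 matches and *Fcer1a* held 1, while the *Kit* and *Kitl* windows held none. Over 32851 mouse promoters of the same length, 26.5% held at least 1 match. The E-box letters CANNTG, which do not overlap these matches and include the sites that MITF binds, were found in *Cpa3*, *Cma1*, *Hdc* and *Fcer1a* and in 66.2% of all promoters. *Tpsb2* had no entry. These are letter matches in a window and say nothing of binding.

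Library depth was 9596773 to 17594164 counts, so that 3 counts, taken as the floor, correspond to 0.167 to 0.313 CPM (counts scaled to library size with TMM factors), and floors cover counting error only. Counts of *Nf1* over the whole gene were not lower in PNs (129 to 228 CPM in controls and 225 to 294 in PNs, log2 fold change 0.54, adjusted p = 0.0215). Floxed exons were not counted separately, so this does not check deletion. SC markers summed to 2309 to 6888 CPM in controls and 4891 to 11462 in PNs. Libraries differed in the tissue around the nerve. Summed skeletal muscle markers were 12997 to 45926 CPM in controls, 110 to 14910 in slow-growing PNs and 467 to 9324 in fast-growing PNs, and summed fat markers were 4397 to 6203, 47.9 to 3551 and 46.6 to 325 CPM. Of 14 sensory neuron markers none passed the test in any comparison, but fast-growing PN 1191 stood apart with a summed level of 36.4 CPM, against 1762 to 15286 in the other libraries, and slow-growing PN 1203 had the highest. Control DRG5 stood apart in 10 neutrophil markers, with a sum of 1605 CPM against 51.7 to 327 elsewhere. Where leaving out 1 of these 3 libraries changed the call of a member, its adjusted p without that library is given.

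*Mcpt4* was below the controls in every PN and *Kitl* above them, while *Kit* overlapped between the groups. The transcript of *Mcpt4*, which encodes a mast cell chymase, was 5.38-fold lower in fast-growing PNs than in controls, and *Hdc*, which encodes histidine decarboxylase, was 6.57-fold lower, although without control DRG5 its difference was -1.40 on the log2 scale and did not pass (adjusted p = 0.128). With every library of both groups in the fit, these 2 of 9 members passed the test (edgeR quasi-likelihood, Benjamini-Hochberg adjusted p under 0.05) in that comparison, both lower. Over all 16037 genes tested, 31.4% passed in either direction and 16.7% were lower, so the count of 2 was close to the background share. Fitted log2 fold changes were below 0 for 7 of the 9, with a median of -0.82, against 0.02 over all genes. In slow-growing PNs against controls, 0 of the 8 members tested passed by edgeR, where 11.3% of genes passed. There, 3 had an unadjusted p under 0.05 (30.3% of all genes), DESeq2 called 1 and limma-voom called 0. Between fast-growing and slow-growing PNs, 0 of 9 passed by edgeR or limma-voom and 0 of the 7 to which DESeq2 gave an adjusted p (it gave none to *Ms4a2* and *Fcer1a*), with 2 at an unadjusted p under 0.05 (20.4% of all genes) and 1.27% of all genes called. With all 11 PNs against controls, *Mcpt4* and *Hdc* passed, both lower and neither without DRG5 (adjusted p = 0.0966 and 0.352), where 26.3% of all genes passed and 13.4% were lower. The comparisons with controls share the same 3 control libraries. In whole tissue, fewer mast cells and less RNA per mast cell cannot be told apart.

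**Figure D1:**
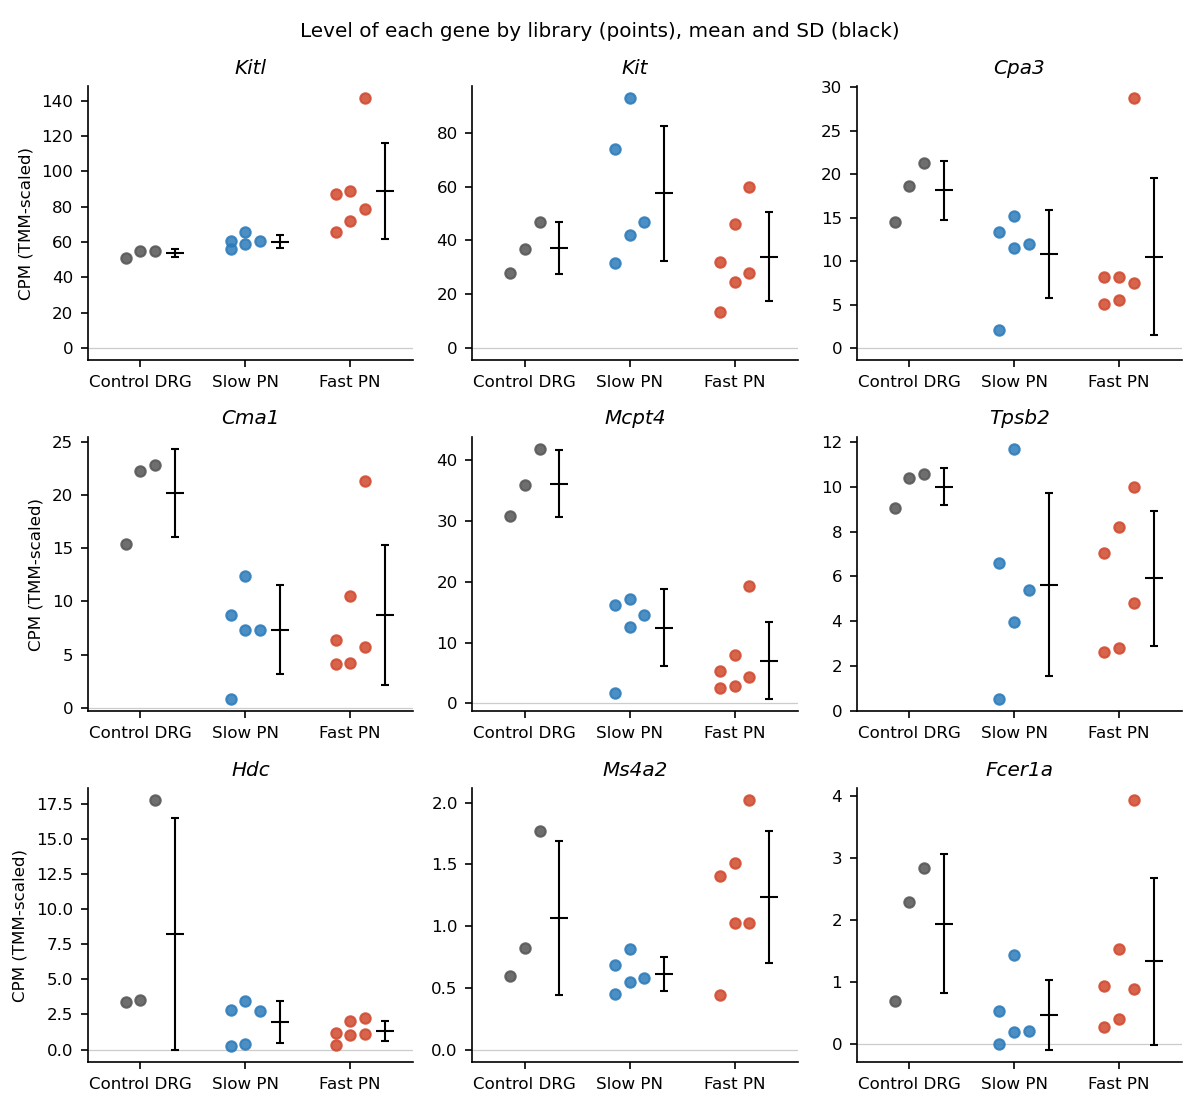
Level of each gene in CPM after TMM scaling, 1 point per library, in 3 control DRG, 5 slow-growing PN and 6 fast-growing PN libraries, with the group mean and SD in black. *Mcpt4* lies below the controls in every PN and *Kitl* above them in every PN, while *Kit* and *Cpa3* overlap between the groups.

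*Kitl* (chr10:100015630-100100416, plus strand, mm10) encodes KIT ligand, also called stem cell factor. Its level was 55.1, 55.1 and 51.1 CPM in control DRG3, DRG4 and DRG5. In the slow-growing PNs 1079, 1198A, 1202, 1203 and 1206 it was 58.9, 65.5, 60.8, 60.4 and 56.0 CPM. The fast-growing PNs ranged from 65.9 CPM in 1071 to 141 CPM in 1191, with a median of 82.9. The groups thus stood in order without overlap, although the margins were narrow, at 55.1 against 56.0 and at 65.5 against 65.9 CPM. *Kitl* was the only member higher than the controls without overlap, in either PN group. Of all genes tested, 11.6% lay wholly above the controls for the slow-growing PNs, 17.8% for the fast-growing PNs and 8.51% for all 11 PNs. It was also the only member without overlap between fast-growing and slow-growing PNs, where 2.13% of all genes lay wholly higher in the fast-growing group.

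None of these *Kitl* differences passed the test over all genes. The log2 fold change was 0.11 ± 0.12 (SE, adjusted p = 0.569) in slow-growing PNs against controls, 0.66 ± 0.24 (adjusted p = 0.0627) in fast-growing PNs against controls and 0.56 ± 0.18 (unadjusted p = 0.0102, adjusted p = 0.115) between the growth groups, the last being 0.37 without 1191 (adjusted p = 0.152). With the length and GC trend removed, the slow-growing *Kitl* value turned to -0.12 (adjusted p = 0.576). Library 1191 widened the spread of the fast-growing group. Without it the change against controls was smaller, 0.47, and passed (adjusted p = 0.0256). DESeq2 and a fit of all 14 libraries together called it as well, with adjusted p values of 0.0367 and 0.0172, and it also passed without 1071 (adjusted p = 0.0371) or 1179 (adjusted p = 0.0458). Over the 11 PNs, *Kitl* followed the summed fibroblast markers (Pearson r = 0.666, and 0.817 over the 9 PNs left without the 2 libraries whose sums lay farthest from the median) and the macrophage markers (r = 0.713 and 0.761), which share libraries and scaling with it. Against the sensory neuron markers r was -0.831, but -0.211 over 9 PNs without 1191 and 1203. For endothelial markers r was 0.343 (0.697 over 9) and for SC markers -0.448 (-0.672 over 9). The summed fibroblast level was 1693 to 3198 CPM in controls, 1094 to 4842 in slow-growing PNs and 4579 to 9155 in fast-growing PNs. For endothelial markers it was 315 to 456, 77.3 to 424 and 103 to 305 CPM in the same order. The part of these cells in the *Kitl* difference was not tested.

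*Kit* (chr5:75574916-75656722, plus strand) encodes the receptor. It measured 36.9, 46.8 and 27.7 CPM in the 3 controls, and 42.1, 31.6, 74.1, 92.9 and 47.0 CPM in slow-growing PNs 1079, 1198A, 1202, 1203 and 1206. Fast-growing PNs ranged from 13.4 CPM in 1191 to 59.8 CPM in 1071, with a median of 29.9. All 3 groups overlapped. Against controls, the log2 fold change was 0.56 ± 0.36 in slow-growing PNs (adjusted p = 0.307) and -0.21 ± 0.38 in fast-growing PNs (adjusted p = 0.726), and -0.76 ± 0.37 between fast-growing and slow-growing PNs (adjusted p = 0.275).

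Of 10 marker lists, *Kit* had its highest positive correlation with that of sensory neurons. Over the 11 PNs its log2 level had a Pearson r of 0.828 with the summed sensory neuron markers (Spearman rho 0.900), and 0.762 over 9 PNs when 1191 and 1203, the libraries farthest from the median neuron level, were left out. It ran about as closely, in the opposite direction, against the macrophage markers (r = -0.844, and -0.734 over 9 PNs) and the fibroblast markers (r = -0.833 and -0.788). Against *Cpa3* the r was -0.616 (rho -0.373) and 0.183 over the 9 libraries left when those farthest from the median *Cpa3* level were dropped. Among 15145 genes, the 5 whose log2 levels were most like that of *Kit* over the 11 PNs were *Tmem246*, *Rasgef1a*, *Ablim3*, *Iscu* and *Acyp2*, with r of 0.987 to 0.979, and none of the 8 other members was among them. The melanocyte markers summed to 34.1 to 47.5 CPM in controls and 29.6 to 49.7 CPM in PNs, with r of -0.382 to *Kit* over 11 PNs and 0.305 over 9. That sum rests on few genes, since only 3 of the 6 passed the low-count filter. In 1198A, 4 were at 0 while the sum was 40.1 CPM. These are descriptions over 11 libraries that share scaling and tissue composition. The part of neuronal *Kit* in the group values was not tested.

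**Figure D2:**
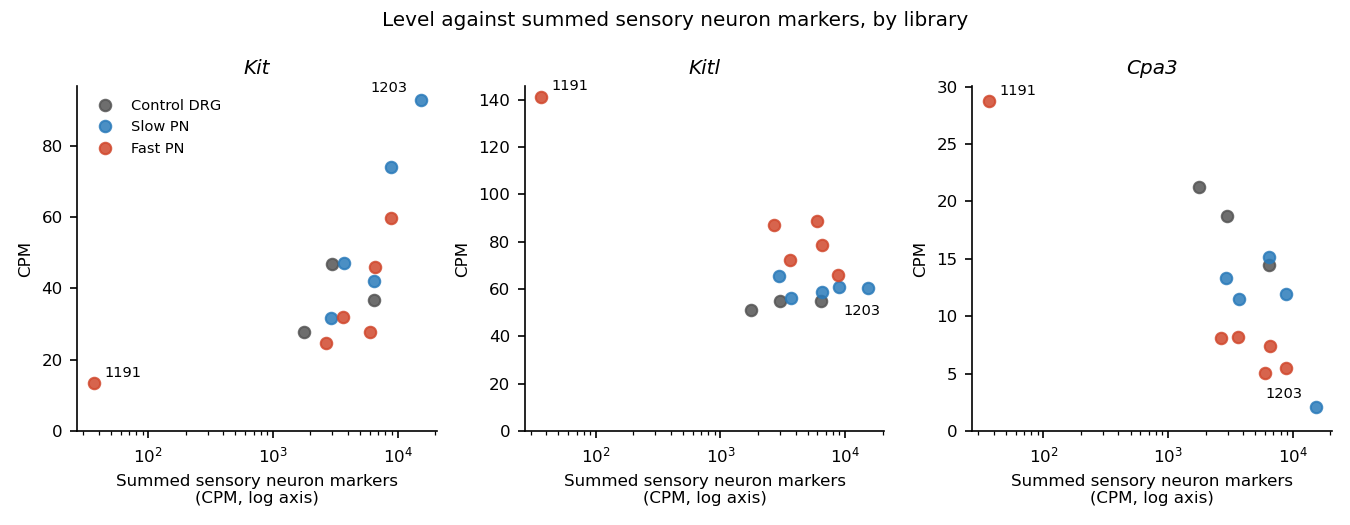
Level of *Kit*, *Kitl* and *Cpa3* in CPM against the summed CPM of 14 sensory neuron markers on a log axis, 1 point per library, colored by group. *Kit* rises with the neuron markers from 13.4 CPM in fast-growing PN 1191 to 92.9 CPM in slow-growing PN 1203, while *Cpa3* is highest in 1191 (28.7 CPM) and lowest in 1203 (2.11 CPM).

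Ligand and receptor were therefore also set against each other within each library, where scaling cancels. The ratio of *Kitl* to *Kit* counts was 1.18 to 1.84 in controls, 0.650 to 2.07 in slow-growing PNs and 1.10 to 10.5 in fast-growing PNs, with medians of 1.495, 1.19 and 2.72. The groups overlapped, and the highest ratio was that of 1191. Over the 11 PNs the log2 levels of the pair ran opposite to each other (r = -0.823, rho -0.718, and -0.597 over 9 PNs without the 2 farthest from the median *Kitl* level). A ratio of whole-tissue counts does not say which cells hold either transcript.

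*Mcpt4* (chr14:56059629-56062313, minus strand) encodes mouse mast cell protease 4, a chymase of connective tissue mast cells. It measured 30.7, 35.9 and 41.7 CPM in controls, and 16.2, 12.6, 14.6, 1.65 and 17.2 CPM in slow-growing PNs 1079, 1198A, 1202, 1203 and 1206. In fast-growing PNs it ranged from 2.53 CPM in 1071 to 19.2 CPM in 1191, with a median of 4.82. Every PN was below every control, as were 9.13% of all genes. In fast-growing PNs the log2 fold change was -2.43 ± 0.58 (adjusted p = 0.0109), and it was called with any 1 library left out (adjusted p 0.000362 to 0.0427). Without 1191 it was -3.06. In slow-growing PNs the log2 fold change was -1.59 ± 0.56 (adjusted p = 0.104), and without library 1203, the lowest of that group, it was -1.29 and passed (adjusted p = 0.00799). For all PNs it was -1.95 ± 0.57 (adjusted p = 0.0214), and the call was lost without DRG4 (adjusted p = 0.0690) or DRG5 (adjusted p = 0.0966) and with the length and GC trend removed (-1.56, adjusted p = 0.0695). With muscle and fat marker scores as covariates the fast-growing difference was -1.21 and did not pass (adjusted p = 0.957), in a fit that called 0 genes of any kind. Over all PNs *Mcpt4* was then -0.66 (adjusted p = 0.689), and in slow-growing PNs its sign turned, to 0.39 (adjusted p = 0.974). Over the 11 PNs *Mcpt4* had an r of 0.736 with the summed fat markers (0.684 over 9) and of -0.194 with the summed skeletal muscle markers (-0.756 over 9), and the part of fat and muscle in its difference was not tested further.

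*Cma1* (chr14:55941451-55944675, minus strand), which encodes another chymase, also called mast cell protease 5, lies in the same protease cluster. Its levels were 15.4, 22.3 and 22.8 CPM in controls, and 8.73, 12.4, 7.35, 0.824 and 7.33 CPM in the slow-growing PNs in the same order. Every slow-growing PN was below every control for *Cma1* as for *Mcpt4*, so that 2 members lay wholly lower in slow-growing PNs, where 12% of all genes did. In fast-growing PNs *Cma1* ranged from 4.13 CPM in 1053 to 21.3 CPM in 1191, with a median of 6.05, and only 1191 reached the control range. The log2 fold change was -1.51 ± 0.60 in slow-growing PNs (adjusted p = 0.136) and -1.28 ± 0.51 in fast-growing PNs (adjusted p = 0.0872). limma-voom called *Cma1* in fast-growing PNs (adjusted p = 0.0244) and over all PNs (adjusted p = 0.0292), as the third member beside *Mcpt4* and *Hdc*. With edgeR and without 1203, the slow-growing value was -1.21 and passed (adjusted p = 0.0293), and without 1191 the fast-growing value was -1.78 and passed (adjusted p = 0.00383). Over all PNs *Cma1* was -1.33 ± 0.53 (adjusted p = 0.0743), and it passed without 1203 (-1.21, adjusted p = 0.0345) or without 1191 (-1.61, adjusted p = 0.0195).

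*Cpa3* (chr3:20215620-20242181, minus strand) encodes carboxypeptidase A3, a granule exopeptidase stored with the chymases. It stood at 14.5, 18.7 and 21.3 CPM in controls, at 15.2, 13.3, 12.0, 2.11 and 11.5 CPM in slow-growing PNs, and from 5.02 CPM in 1053 to 28.7 CPM in 1191 in fast-growing PNs, with a median of 7.78. The 5 fast-growing PNs other than 1191 were all below the controls, and 1191 was above them. Fitted log2 fold changes were -0.80 ± 0.50 in slow-growing PNs (adjusted p = 0.304) and -0.86 ± 0.54 in fast-growing PNs (adjusted p = 0.263). Without 1191 it was -1.48 in fast-growing PNs and passed (adjusted p = 0.00179), and without 1203 it was -0.52 in slow-growing PNs and did not (adjusted p = 0.14).

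*Tpsb2* (chr17:25366305-25369098, plus strand) encodes a tryptase, mast cell protease 6. Controls were close together, at 10.4, 10.5 and 9.07 CPM. Slow-growing PNs measured 6.61, 11.7, 3.98, 0.549 and 5.40 CPM, and fast-growing PNs ranged from 2.62 CPM in 1053 to 9.98 CPM in 1191, with a median of 5.94. The groups overlapped, through 1198A among the slow-growing and 1191 among the fast-growing PNs. Against controls, slow-growing PNs had a log2 fold change of -0.87 ± 0.67 (adjusted p = 0.389) and fast-growing PNs -0.82 ± 0.43 (adjusted p = 0.177). The first was -0.55 without 1203 (adjusted p = 0.325) and the second -1.04 without 1191 (adjusted p = 0.0750). *Tpsab1*, the neighboring tryptase gene for mast cell protease 7 and not one of the 9, went another way in fast-growing PNs. It measured 3.43, 3.76 and 2.81 CPM in controls and 5.46 to 18.7 CPM in fast-growing PNs. In slow-growing PNs 1079, 1198A, 1202, 1203 and 1206 it was 0.987, 12.8, 0.715, 0.183 and 0.578 CPM. Its log2 fold change of 1.38 ± 0.44 in fast-growing PNs passed (adjusted p = 0.0394), but was lost with any 1 control, or with 1179 or 1191, left out (adjusted p up to 0.116), and with limma-voom or 1 fit over all 14 libraries.

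**Figure D3:**
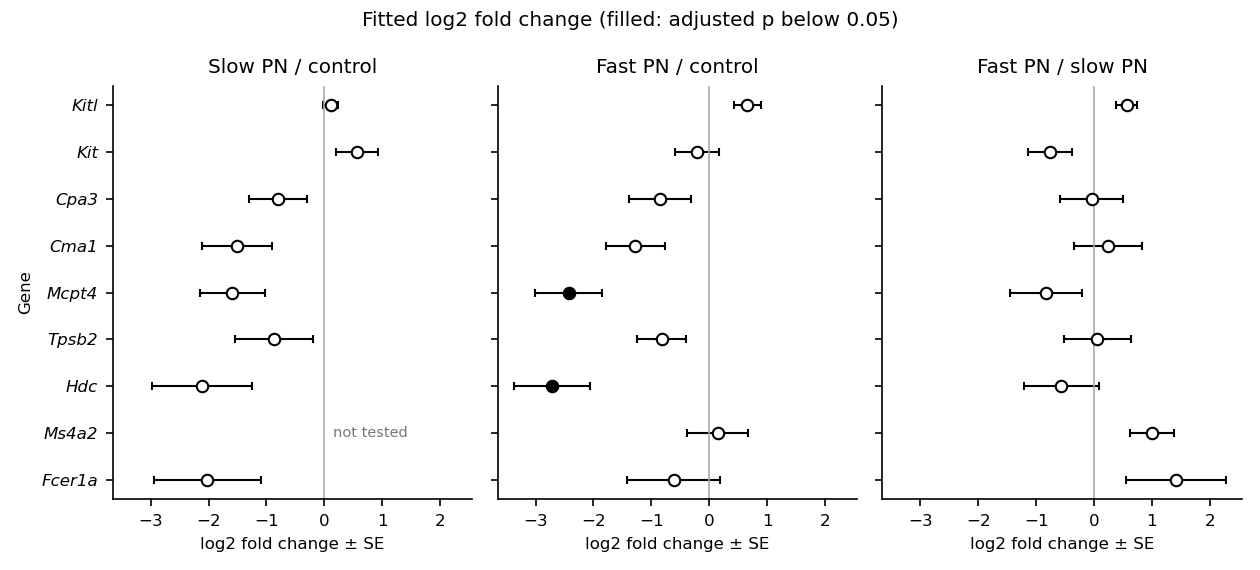
Fitted log2 fold change of each gene with its SE, for slow-growing PNs over controls, fast-growing PNs over controls and fast-growing over slow-growing PNs, with filled points where the adjusted p was below 0.05. Filled points are *Mcpt4* (-2.43) and *Hdc* (-2.72) in fast-growing PNs over controls, and *Ms4a2* was not tested in slow-growing PNs over controls.

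The chymase transcripts also stood in another ratio to each other in fast-growing PNs. The ratio of *Mcpt4* to *Cma1* counts was 1.99, 1.61 and 1.83 in controls, and 1.85, 1.02, 1.98, 1.95 and 2.33 in slow-growing PNs 1079, 1198A, 1202, 1203 and 1206. In fast-growing PNs it was 0.600 to 0.936, with a median of 0.721, so that every fast-growing PN was below every slow-growing PN and every control. Library 1191, although high in both transcripts, had a ratio of 0.901, inside its group, and 1203, although low in both, had 1.95, inside its own. Of the 36 pairs of members this was the only pair whose ratio set the fast-growing PNs apart from all other libraries. That share, 2.78%, was close to the 2.08% of all pairs of tested genes that did so. The third ratio computed, *Cpa3* to *Kit*, overlapped between the groups (0.394 to 0.767 in controls, 0.0232 to 0.421 in slow-growing and 0.0930 to 2.14 in fast-growing PNs). No ratio was tested. The authors' counting could have moved a few reads between related genes, since 5.48% of the 50-base words of the *Mcpt4* transcript and 5.38% of those of *Cma1* also occur in transcripts of another gene.

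**Figure D4:**
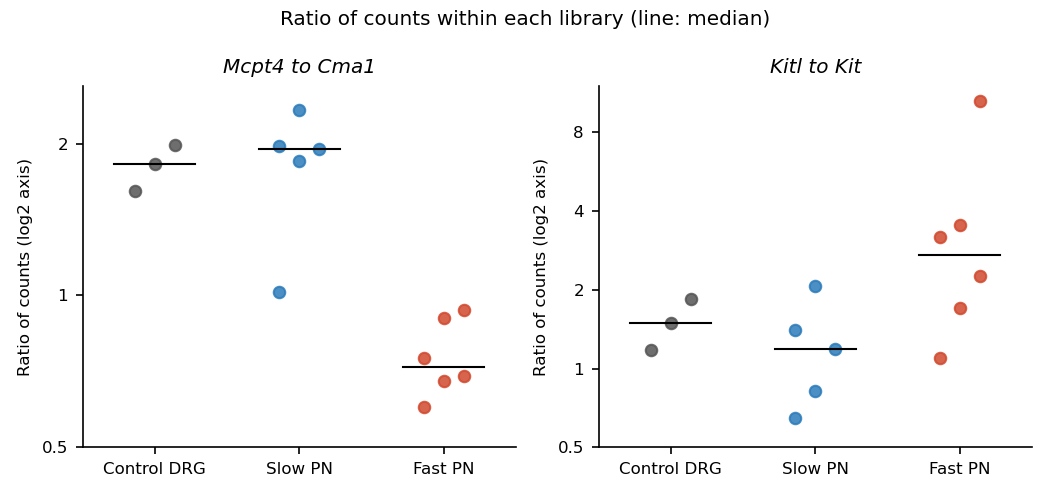
Ratio of *Mcpt4* to *Cma1* counts and of *Kitl* to *Kit* counts within each library on a log2 axis, 1 point per library, with a line at each group median. All 6 fast-growing PNs have a *Mcpt4* to *Cma1* ratio of 0.936 or less, below the 1.02 to 2.33 of slow-growing PNs and the 1.61 to 1.99 of controls.

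Per kilobase of the longest annotated transcript, the order of the genes also differed between groups. In controls *Mcpt4* was the highest of the 9, at 27.7 to 37.6 CPM per kb, followed by *Cma1* at 14.2 to 20.9. *Cpa3*, with a mean of 12.5 and up to 14.7, overlapped *Cma1*. *Kitl* at 9.04 to 9.76, *Tpsb2* at 7.035 to 8.175 and *Kit* at 5.29 to 8.93 came below *Cpa3*. In slow-growing PNs the means of *Mcpt4*, *Kit* and *Kitl* were close, at 11.23, 10.98 and 10.67 CPM per kb. In fast-growing PNs *Kitl* had the highest mean, 15.8 CPM per kb with a range of 11.7 to 25.0. The means of *Cma1*, *Cpa3*, *Kit* and *Mcpt4* lay between 6.34 and 7.998 CPM per kb there, and their ranges overlapped.

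*Hdc* (chr2:126593667-126619299, minus strand) encodes histidine decarboxylase, which makes histamine. It measured 3.52, 3.39 and 17.7 CPM in DRG3, DRG4 and DRG5, and 2.81, 3.46, 2.76, 0.275 and 0.386 CPM in slow-growing PNs 1079, 1198A, 1202, 1203 and 1206. Fast-growing PNs ranged from 0.297 CPM in 1214 to 2.27 CPM in 1191, with a median of 1.15. All fast-growing PNs were below all controls, as for *Mcpt4*, where 14.9% of all genes lay wholly lower. The difference passed in fast-growing PNs (log2 fold change -2.72 ± 0.66, adjusted p = 0.0119) and over all PNs (-2.37 ± 0.64, adjusted p = 0.0146), and in slow-growing PNs the values were -2.12 ± 0.86 (adjusted p = 0.143), or -0.88 without DRG5 (adjusted p = 0.620). Both calls were lost without DRG5, where the log2 fold change was -1.40 in fast-growing PNs (adjusted p = 0.128) and -1.12 over all PNs (adjusted p = 0.352). They were also lost with muscle and fat marker scores as covariates (-2.40, adjusted p = 0.938, and -1.25, adjusted p = 0.591), which turned the slow-growing value to 0.31 (adjusted p = 0.995). *Hdc* is also used by neutrophils and their precursors, and DRG5 is the library with the neutrophil marker sum of 1605 CPM. Of the 10 neutrophil markers, 2 were called lower in fast-growing PNs and 5 over all PNs, where 16.7% and 13.4% of all genes were. The part of neutrophils in the *Hdc* difference was not tested.

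The chains of the high-affinity IgE receptor had low counts, 0 to 52 per library for *Fcer1a* and 6 to 30 for *Ms4a2*. *Fcer1a* (chr1:173221284-173227214, minus strand), the alpha chain that binds IgE, measured 0.686, 2.84 and 2.29 CPM in controls. Slow-growing PNs measured 0.532, 1.43, 0.204, 0 and 0.193 CPM, and fast-growing PNs ranged from 0.279 CPM in 1053 to 3.93 CPM in 1191. The count of 0 was in 1203, and several other PN values were at or near the floor. Against controls, values of log2 fold change were -2.02 ± 0.92 in slow-growing PNs (adjusted p = 0.176) and -0.62 ± 0.80 in fast-growing PNs (adjusted p = 0.603), and the latter was -1.34 without 1191 (adjusted p = 0.138). *Ms4a2* (chr19:11615523-11623719, minus strand), the beta chain that amplifies the signal, measured 0.600, 0.825 and 1.77 CPM in controls, 0.451 to 0.817 in slow-growing and 0.446 to 2.02 in fast-growing PNs. It did not pass the low-count filter for slow-growing PNs against controls. Between fast-growing and slow-growing PNs its log2 fold change was 0.998 ± 0.38 (unadjusted p = 0.0223, adjusted p = 0.166), opposite in sign to that of *Mcpt4* (-0.83 ± 0.61, adjusted p = 0.476, and -1.46 without 1191), and the groups overlapped. No tested difference of the receptor chains passed, and the part of depth in this was not tested.

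The comparisons of members not yet given did not pass the test. Between fast-growing and slow-growing PNs, fitted log2 fold changes were -0.04 ± 0.54 for *Cpa3*, 0.24 ± 0.59 for *Cma1*, 0.06 ± 0.58 for *Tpsb2*, -0.56 ± 0.65 for *Hdc* and 1.41 ± 0.86 for *Fcer1a* (adjusted p 0.386 to 0.969). Over all PNs against controls they were 0.25 ± 0.44 for *Kit*, 0.48 ± 0.24 for *Kitl*, -0.79 ± 0.50 for *Cpa3*, -0.80 ± 0.53 for *Tpsb2*, -0.16 ± 0.50 for *Ms4a2* and -1.04 ± 0.86 for *Fcer1a* (adjusted p 0.161 to 0.842), the last being -1.60 without 1191. *Ms4a2* had 0.14 ± 0.53 in fast-growing PNs against controls (adjusted p = 0.867), and 0.77 without DRG5.

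Across the 11 PNs the granule transcripts varied together. With *Cpa3*, Pearson r was 0.940 for *Cma1*, 0.912 for *Mcpt4*, 0.841 for *Tpsb2* and 0.649 for *Hdc*. When 1203 and 1191, the extremes of *Cpa3*, were left out, the r over 9 PNs was 0.785, 0.944, 0.650 and 0.551. *Cma1* was also the gene most like *Cpa3* of the 15145 compared. It was followed by *Gm10825*, *Neu3*, *Usp24* and *Sypl*, with r of 0.928 to 0.922. None of these is a member, and all were closer to *Cpa3* than *Mcpt4*, *Tpsb2* and *Hdc* were. *Hdc* had an r of 0.679 with the summed neutrophil markers (0.661 over 9). Of the receptor chains, *Fcer1a* had an r of 0.682 with *Cpa3*, not below that of *Hdc*, although its rho was lower (0.509 against 0.800). *Ms4a2* had an r of 0.248. Over the 9 PNs the r with *Cpa3* was 0.089 for *Fcer1a* and -0.271 for *Ms4a2*. *Kitl* did not follow *Cpa3* (r = 0.385, rho -0.100). All these libraries share scaling and differ in tissue composition, and no test was made.

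Leaving out both 1203 and 1191, the libraries with the highest and lowest neuron marker sums, was tried after the data had been seen. They are also the low and high ends of the granule genes within their groups, so that dropping them by itself moves the fast-growing group below the slow-growing group for these genes, and the direction below is no evidence of its own. Between the remaining 5 fast-growing and 4 slow-growing PNs, *Mcpt4* (log2 fold change -1.75, adjusted p = 0.0267) and *Cpa3* (-0.95, adjusted p = 0.0376) then passed, while with either library alone left out neither did (*Mcpt4* adjusted p = 0.267 without 1203 and 0.201 without 1191, *Cpa3* 0.81 and 0.448). The fit without both libraries called 509 genes in all, against 196 (1.27%) with every library in it. Without 1203 alone 578 genes were called, and without 1191 alone 2. With both left out, *Kitl* was 0.35 (adjusted p = 0.161) and *Kit* -0.39 (adjusted p = 0.554). Over all PNs against controls, *Cma1* (-1.51, adjusted p = 0.00313) and *Cpa3* (-0.99, adjusted p = 0.0300) then passed beside *Mcpt4* and *Hdc*. Calls over all genes also rose in that fit, above the 4283 of 16283 genes (26.3%) called with every library in it.

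Of 19 other genes used by mast cells, 13 or 14 were tested in each comparison and called in 1 comparison alone. In fast-growing PNs against controls, *Tpsab1* was called higher and *Gata2* and *Ctsg* lower, with a list median of 0.10. These 3 of 14 stand against 31.4% of all genes called. *Gata2*, which encodes a GATA factor of mast cells and other blood and endothelial cells, was 5.92 to 7.61 CPM in controls and 3.66 to 5.08 CPM in fast-growing PNs, without overlap (log2 fold change -0.81 ± 0.20, adjusted p = 0.0136). Of all genes, 14.9% lay wholly lower in that comparison. The *Gata2* call was lost without DRG4 or DRG5 (adjusted p up to 0.0662) and in 1 fit over all 14 libraries. Of 6 endothelial markers, 3 were also called lower in that comparison, as were 16.7% of all genes (list median -1.14), *Kdr* (-1.99), *Egfl7* (-1.70) and *Tek* (-1.08), and their summed level was 315 to 456 CPM in controls and 103 to 305 in fast-growing PNs. Their part in the *Gata2* difference was not tested. *Ctsg*, for the protease cathepsin G, is shared with neutrophil precursors. It reached 11.3 CPM in DRG5 and was 0 to 1.46 CPM in every other library, and its call (-3.78 ± 1.22, adjusted p = 0.0401) was lost without DRG5, without 5 of the 6 fast-growing PNs in turn, with limma-voom and with the length and GC trend removed. *Mcpt9* was at 0 in every PN and *Mcpt1* in every fast-growing PN.

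Signaling genes downstream of KIT and the IgE receptor, most of them used by many cell types, were all measurable, with 25 of 25 tested. Called higher in fast-growing PNs were *Gab2*, *Pik3r1*, *Shc1* and *Fyn*, and *Ptpn11* was called lower, with a list median of -0.17. These 5 of 25 stand against 31.4% of all genes called in that comparison. *Gab2*, an adaptor between KIT and phosphoinositide 3-kinase, was 43.3 to 55.1 CPM in controls, 47.5 to 73.8 in slow-growing PNs and 86.1 to 135 in fast-growing PNs. It was called in fast-growing PNs against controls (log2 fold change 1.19 ± 0.18, adjusted p = 0.000950, and called with any 1 library left out) and against slow-growing PNs (0.97 ± 0.15, adjusted p = 0.0317), where the call was lost in 7 of 11 such fits. *Pik3r1*, a regulatory subunit of that kinase, had a log2 fold change of 0.95 ± 0.16 in fast-growing PNs (adjusted p = 0.00169) and kept its call with any 1 library left out. The calls of *Shc1* (0.76 ± 0.20, adjusted p = 0.0183), *Fyn* (0.43 ± 0.13, adjusted p = 0.0327) and *Ptpn11* (-0.34 ± 0.10, adjusted p = 0.0308) were lost in 2, 5 and 7 of 9 fits, DRG4 and DRG5 among the libraries left out each time. *Ptpn11* was also lost without the low-count filter. Over all PNs, *Pik3r1* was called higher with any 1 library left out. *Shc1* and *Fyn* were also called higher and *Stat5b* lower, but these were lost in 3, 2 and 5 of 14 fits with 1 library left out, *Fyn* also with the length and GC trend removed, and *Stat5b* also without the filter and with limma-voom. In slow-growing PNs 0 of 25 passed by edgeR, where 11.3% of all genes did, with a list median of -0.75 against 0.04 over all genes.

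Of 11 other factors that grow or draw mast cells, 7 could be tested. In fast-growing PNs against controls 2 were called higher and 2 lower, where 31.4% of all genes were called, with a list median of -0.32 against 0.02 over all genes. *Ccl2*, a chemokine, was 3.86 to 4.31 CPM in controls, 2.73 to 16.0 in slow-growing PNs and 10.7 to 88.4 in fast-growing PNs, and was called higher in the last (log2 fold change 2.87 ± 0.73, adjusted p = 0.0142, lost without DRG4 or DRG5 and with limma-voom). *Il33*, whose product activates mast cells through the ST2 receptor, was 42.2 to 45.7 CPM in controls and 59.8 to 136 in fast-growing PNs (0.84 ± 0.26, adjusted p = 0.0364, lost without any 1 control, without 1053 and in 1 fit over all 14 libraries). *Cxcl12* was 91.8 to 221 CPM in controls and 38.1 to 54.7 in fast-growing PNs, and was called lower with any 1 library left out (-1.83 ± 0.25, adjusted p = 0.000569). *Ccl5* was called lower in every comparison with controls, although its control levels spread from 1.03 to 128 CPM. Those calls were lost with limma-voom, and in slow-growing PNs also without DRG4 (adjusted p = 0.0746).

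In the histamine pathway, *Hnmt*, the methyltransferase that inactivates histamine, was lower in PNs without overlap, as were 9.13% of all genes. It was 14.3 to 17.9 CPM in controls, 2.51 to 8.19 in slow-growing PNs and 1.14 to 5.73 in fast-growing PNs. The log2 fold change was -1.65 ± 0.36 in slow-growing PNs (adjusted p = 0.0236, lost without DRG4, DRG5 or 1202) and -2.21 ± 0.38 in fast-growing PNs (adjusted p = 0.00205, called with any 1 library left out). Only 3 or 4 of the 6 genes in this list, which leaves out *Hdc*, were tested in each comparison, and no other was called. Of all genes, 11.3% were called in slow-growing PNs against controls, 31.4% in fast-growing PNs and 26.3% over all PNs. With the muscle and fat covariates, every call of the companion genes named here was lost, in fits that called 0 genes, or 536 over all PNs.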

How the data were processed

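Bulk RNA-seq of 14 libraries was used. The authors amplified total RNA (Ovation RNA-Seq System v2) and, per the submitters' processing notes, used CASAVA 1.4, FastQC 0.11.0, TopHat2 2.0.9, featureCounts 1.5.2, edgeR 3.16.5 and mm10. The annotation and strand setting are not given in the sources used here. The deposited counts per gene are whole numbers without normalization. A second deposited table of log2 normalized values was not used.

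Counts were analysed in R 4.3.3 with edgeR 4.0.16: filterByExpr, TMM factors and the quasi-likelihood test, with only the libraries of each comparison in the fit and Benjamini-Hochberg adjustment over all genes tested (threshold 0.05). SE was the log2 fold change divided by the square root of F. Levels are CPM with TMM scaling over all libraries. Correlations used log2(CPM + 1), and ratios counts + 0.5. DESeq2 1.42.0 and limma 3.58.1 (voom) were alternatives, beside relative log expression scaling, no filter, covariates, a length and GC trend, and each library left out. On simulated counts with 200 genes changed by 2 on the log2 scale, 62%, 63%, 79% and 65% were recovered for slow-growing PNs against controls, fast-growing PNs against controls, fast-growing against slow-growing PNs and all PNs against controls (15490, 15834, 15323 and 16127 genes).

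The genes and the companion lists were chosen with earlier results of these data known. All 9 genes are named in every comparison. Up to 6 called genes by adjusted p are named from the mast cell, signaling, growth and recruitment, histamine and endothelial lists. Called genes of the other marker lists are not named. The 5 genes most like *Kit* and *Cpa3* (mean of at least 1 CPM in PNs) are named. The genes most like *Kitl* are not reported here. Positions are from GENCODE vM21. Nothing says that control libraries were separate mice or that libraries were prepared together, so p-values measure the spread between these libraries, and preparation and group cannot be told apart.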

Additional observations from a re-analysis of the deposited data

Results flagged for a closer look

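For 9 genes in slow-growing and in fast-growing PNs, 18 sets of CPM values were examined with Dixon's criterion. In 6 of them the gap between a library and its nearest neighbor was large for the range of its group. By chance the criterion flags about 1 of 20 sets if values are normal and sets are independent. These CPM values were not log-transformed and the 18 sets share libraries, so that rate does not apply to the 6. Fast-growing PN 1191 accounted for 5. It had 141.3 CPM of *Kitl*, where the other 5 lay between 65.9 and 88.7. It also had 28.72 CPM of *Cpa3* (others 5.02 to 8.19), 21.32 CPM of *Cma1* (others 4.13 to 10.5), 19.2 CPM of *Mcpt4* (others 2.53 to 7.90) and 3.93 CPM of *Fcer1a* (others 0.279 to 1.54). The sixth was *Cpa3* in slow-growing PN 1203, at 2.106 CPM where the others lay between 11.5 and 15.2. The same 2 libraries had the lowest and highest sensory neuron marker sums, 36.4 and 15286 CPM, and the part of composition in these values was not tested.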

How the results depend on the processing

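Relative log expression scaling and no filter changed no call or sign of a member; that scaling turned the histamine pathway's median over all PNs to -0.009. Muscle and fat covariates called 0 genes in slow-growing PNs against controls, 0 in fast-growing PNs against controls, 0 between growth groups and 536 over all PNs, with 0 members called; the cause was not tested. They reversed *Cpa3* (0.83), *Cma1* (0.075), *Mcpt4* (0.39), *Tpsb2* (0.031) and *Hdc* (0.31) in slow-growing PNs, *Kit* (0.32), *Cpa3* (1.12), *Ms4a2* (-0.17) and *Fcer1a* (0.45) in fast-growing PNs, *Cpa3* (1.06), *Mcpt4* (0.41) and *Hdc* (0.10) between growth groups and *Kitl* (-0.063) over all PNs. Removing the length and GC trend reversed *Kitl* in slow-growing PNs (-0.12) and left 1 member called over all PNs, *Mcpt4* being lost. DESeq2 called 3529 genes and 1 member in slow-growing PNs and 1592 genes between growth groups, limma-voom 34 and relative log expression scaling 130 between growth groups, and 1 fit over all 14 libraries 3280 in slow-growing PNs and 423 between growth groups, against 1769 and 196. DESeq2 gave no adjusted p for *Hdc* in fast-growing PNs against controls, or for *Ms4a2* and *Fcer1a* between growth groups.

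With 1 library left out, 599 to 2454 genes and 0 to 2 members were called in slow-growing PNs, 3342 to 5247 and 1 to 5 in fast-growing PNs, 2 to 1194 and 0 between growth groups, and 2061 to 4779 and 0 to 3 over all PNs. In some of these fits signs reversed for *Cpa3* (-0.68 to 0.11), *Cma1* (-0.27 to 0.52) and *Tpsb2* (-0.23 to 0.51) between growth groups and for *Ms4a2* in fast-growing PNs (-0.16 to 0.77) and over all PNs (-0.44 to 0.41). Without both 1203 and 1191, a choice made after seeing the data, 509 genes and 2 members were called between growth groups. *Cma1* (-0.56) and *Tpsb2* (-0.47) were reversed there. Over all PNs 4 members were then called, and more genes than the 4283 called with every library in the fit. No paired analysis was possible because the groups share no replicate that the labels tie together. Counts of *Fcer1a* and *Ms4a2* were low, and the part of depth in their results was not tested. Having 3 controls limits every comparison with controls.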
